A study of Mus musculus with 28 samples.

Results

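The genes described here are Fam187a, Ccdc103, Gm26668, Vapa and Rab31, which are 5 of the 53342 gene identifiers in each count table and are listed in all 3 tables. They were picked because they lie beside Gfap on chromosome 11 (Fam187a, Ccdc103 and Gm26668) or form a neighbouring pair on chromosome 17 (Vapa and Rab31), with the bulk cortex levels of these libraries already known. Ccdc103 is included for its position, since its bulk levels did not separate the groups. The question put to them was whether they go with the Cre driver rather than with the loss of the floxed gene, so that cKO and Ctrl mice would differ where cKO mice alone have the driver (bulk RNA-Seq) and would not where both have it (TRAP-Seq). The rule that chose the genes names this same comparison of bulk with TRAP, so the values describe the genes and do not test that question. The pattern differed between them. Fam187a, Vapa and Rab31 separated all cKO from all Ctrl libraries in bulk cortex at both ages, and their groups overlapped in the TRAP Input. Ccdc103 did not separate the groups at any age or in any fraction, and Gm26668 separated them everywhere, TRAP included, with a count that was largely matched by the counts of genes inside its span, Gfap among them. In the TRAP IP, cKO libraries stood above Ctrl libraries for Fam187a and Rab31 too. There 20.0% of all genes tested had an adjusted p under 0.05 in edgeR between genotypes. The share of all genes whose groups did not overlap was not counted for any comparison.

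The libraries were made from cerebral cortex of mice on a C57BL/6J background, with 1 mouse per library. The cKO mice were mGFAP-Cre with loxP/loxP alleles of the floxed gene, which Cre removes in astrocytes, and their sex-matched littermates without the driver, with loxP/loxP or loxP/+ alleles, served as Ctrl, so that all groups carried loxP alleles. Bulk RNA-Seq covered 4 cKO and 4 Ctrl mice at postnatal day 24 (P24) and the same numbers at postnatal day 17 (P17). TRAP-Seq, which pulls down ribosomes tagged with EGFP/Rpl10a to read the RNA being translated in the tagged cells, covered 3 cKO and 3 Ctrl mice at P24. Each mouse had a library of the cleared lysate (Input) and of the pulled-down fraction (IP). The tag depended on mGFAP-Cre, and IP libraries were made from Ctrl mice as well, so the TRAP Ctrl mice are inferred to have carried the driver, although their genotype is not spelled out. Both kinds of library also differed in extraction and kit. Bulk RNA was extracted from frozen cortex with Trizol and reverse transcribed from oligo-dT. TRAP RNA came from lysate made with detergent and spun down, was purified on oligo-dT beads and went through a NEBNext kit.

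Gfap encodes the intermediate filament protein by which astrocytes are commonly recognised, and its level rises in reactive astrocytes. Cre drivers for astrocytes borrow its regulatory DNA, and mGFAP-Cre is built on a stretch of mouse genomic DNA around Gfap. A transgene made from genomic DNA can carry neighbouring sequence, and where it lands it can alter the genes of the host chromosome. Reads from a copied gene and from the gene in its own place map to the same position. The place, copy number and ends of this transgene are not given in the sources used here, Cre itself was not measured here, and whether any of the 5 genes is part of the transgene or lies at its insertion was not tested.

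On chromosome 11 (GRCm38), Fam187a (ENSMUSG00000075510) is a protein-coding gene of a single exon of 1563 bases on the plus strand, at chr11:102885169-102886731. Gfap, at chr11:102887336-102900912, is read from the minus strand, so the 3′ ends of both genes face each other across 604 bases. Ccdc103 (ENSMUSG00000020930, chr11:102881204-102885216, plus strand) ends inside Fam187a and shares 48 bases with it. Gm26668 (ENSMUSG00000097410, chr11:102863337-103075903, plus strand) is a long non-coding RNA that spans 212567 bases, Gfap, Fam187a and Ccdc103 among them, of which 3635 bases are exonic. On chromosome 17, Vapa (ENSMUSG00000024091, chr17:65578327-65613555) and Rab31 (ENSMUSG00000056515, chr17:65651729-65772752) are both read from the minus strand, with 38173 bases between them.

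The sequences shown for chromosome 11 are the first 300 bases of the Fam187a coding sequence (chr11:102885372-102885671, plus strand, start codon in capitals) and the first 300 bases after the end of Gfap (chr11:102887036-102887335, minus strand), which make up the Gfap side of the gap. Both were read from the RefSeq GRCm38.p6 genome and are written 5′ to 3′. The gap had a GC content of 53.1%, and AATAAA, the commonest signal for ending a transcript, was found on neither strand of it. The search left out the annotated genes themselves, so a signal inside either gene would not be seen. How the transcripts end was not tested. Among 3011 stretches of 300 bases, shorter than the gap, that follow the genes of chromosome 11, 36.8% held AATAAA on either strand.
Fam187a coding start: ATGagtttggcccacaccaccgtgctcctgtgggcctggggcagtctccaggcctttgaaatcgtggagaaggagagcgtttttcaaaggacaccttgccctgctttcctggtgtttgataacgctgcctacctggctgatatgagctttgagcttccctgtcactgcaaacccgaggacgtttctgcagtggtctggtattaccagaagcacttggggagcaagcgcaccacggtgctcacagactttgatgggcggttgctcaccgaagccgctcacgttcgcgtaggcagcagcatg
Downstream of Gfap: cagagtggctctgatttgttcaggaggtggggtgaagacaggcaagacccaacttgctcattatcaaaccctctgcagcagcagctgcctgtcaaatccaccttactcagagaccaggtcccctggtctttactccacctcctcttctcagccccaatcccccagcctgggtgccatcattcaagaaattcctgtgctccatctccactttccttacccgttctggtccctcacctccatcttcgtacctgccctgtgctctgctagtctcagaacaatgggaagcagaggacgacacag

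For the chromosome 17 pair, whose levels were both lower in bulk cKO cortex, the promoters are shown from the RefSeq table for GRCm38.p6, which held 3 of the 5 genes. Each runs from 250 bases before to 50 bases after the start of the gene, on the minus strand, at chr17:65613506-65613805 for Vapa and chr17:65772703-65773002 for Rab31. Capitals mark GGGCGG, a motif bound by Sp1, and CCAAT, on either strand, and the motifs did not overlap. The Vapa promoter held GGGCGG once on each strand and no CCAAT, and the Rab31 promoter held GGGCGG once and CCAAT once. Of all 32851 promoters of this length in the table, 35.7% held GGGCGG and 37.4% held CCAAT.
Vapa promoter: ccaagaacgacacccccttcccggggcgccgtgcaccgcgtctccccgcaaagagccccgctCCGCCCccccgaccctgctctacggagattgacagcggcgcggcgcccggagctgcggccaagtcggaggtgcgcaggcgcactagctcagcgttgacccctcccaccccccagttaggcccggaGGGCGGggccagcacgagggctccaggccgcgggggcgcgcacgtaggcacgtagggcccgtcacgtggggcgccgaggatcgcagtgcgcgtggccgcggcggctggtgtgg
Rab31 promoter: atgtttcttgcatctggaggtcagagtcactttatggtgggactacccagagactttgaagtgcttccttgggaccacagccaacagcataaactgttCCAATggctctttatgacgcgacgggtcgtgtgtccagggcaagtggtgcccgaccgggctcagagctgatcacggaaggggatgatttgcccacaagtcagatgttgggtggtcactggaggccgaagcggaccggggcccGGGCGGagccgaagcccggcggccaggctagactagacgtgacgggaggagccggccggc

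The bulk libraries held from 8855488 to 14575306 reads counted on genes and the TRAP libraries from 18433087 to 27242445. Levels are in CPM, counts per 1000000 reads counted on genes. A floor of 3 counts was worth 0.202 to 0.341 CPM for bulk and 0.106 to 0.167 CPM for TRAP libraries, and floors and counting intervals cover counting error only. CPM were scaled by TMM factors within a table. Since the 3 tables were scaled separately, levels set side by side across tables carry the differences between the extractions and kits. Markers of astrocytes, neurons, oligodendrocytes, microglia, endothelial and ependymal cells were all detected. Their summed levels differed between bulk and Input, however. Astrocyte markers summed to 3622 to 4216 CPM in P24 bulk Ctrl and 832 to 948 CPM in Input Ctrl libraries. Endothelial markers summed to 92.9 to 103 and 5.24 to 6.68 CPM. Oligodendrocyte and microglia sums were lower in the Input too, and neuron and ependymal sums overlapped. The part of this in the comparisons was not tested.

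Fam187a, a gene whose product has no well-described role in the brain, was close to undetected in bulk cortex of Ctrl mice and clearly present in that of cKO mice. At P24 the 4 Ctrl libraries held 2, 3, 1 and 1 counts (0.147, 0.221, 0.0750 and 0.0729 CPM), and the 4 cKO libraries held 115, 108, 124 and 99 counts (7.75, 8.59, 8.62 and 7.08 CPM). Every Ctrl library was at or under the floor of 3 counts, and the groups did not overlap. The summed counts of 446 against 7, corrected for library size, gave a ratio of 62.0 (95% counting interval 29.8 to 155).

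At P17 the Ctrl libraries held 1, 1, 4 and 0 counts (0.0877, 0.0925, 0.443 and 0 CPM, the last allowing up to 0.341 CPM) and the cKO libraries 53, 63, 41 and 53 counts (5.84, 6.88, 4.42 and 5.53 CPM). The gap between the groups was again many times the spread within them, with a ratio of 37.8 (17.1 to 104) from 210 against 6 counts. The lowest P24 cKO library, at 7.08 CPM, was above the highest P17 one, at 6.88 CPM, but these come from separately scaled tables and the difference between ages was not tested.

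In the TRAP Input, in which the driver is inferred for Ctrl and cKO mice alike, Fam187a was present in all libraries. The Ctrl mice had 1.65, 1.06 and 0.977 CPM and the cKO mice 1.51, 1.32 and 1.34 CPM. All cKO values lay within the range of the Ctrl values, and the count ratio was 1.10 (0.811 to 1.50). In the IP the Ctrl mice had 1.62, 2.34 and 0.937 CPM and the cKO mice 3.24, 2.60 and 2.87 CPM, so that every cKO library was above every Ctrl library, with a count ratio of 1.77 (1.42 to 2.23).

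**Figure D1:**
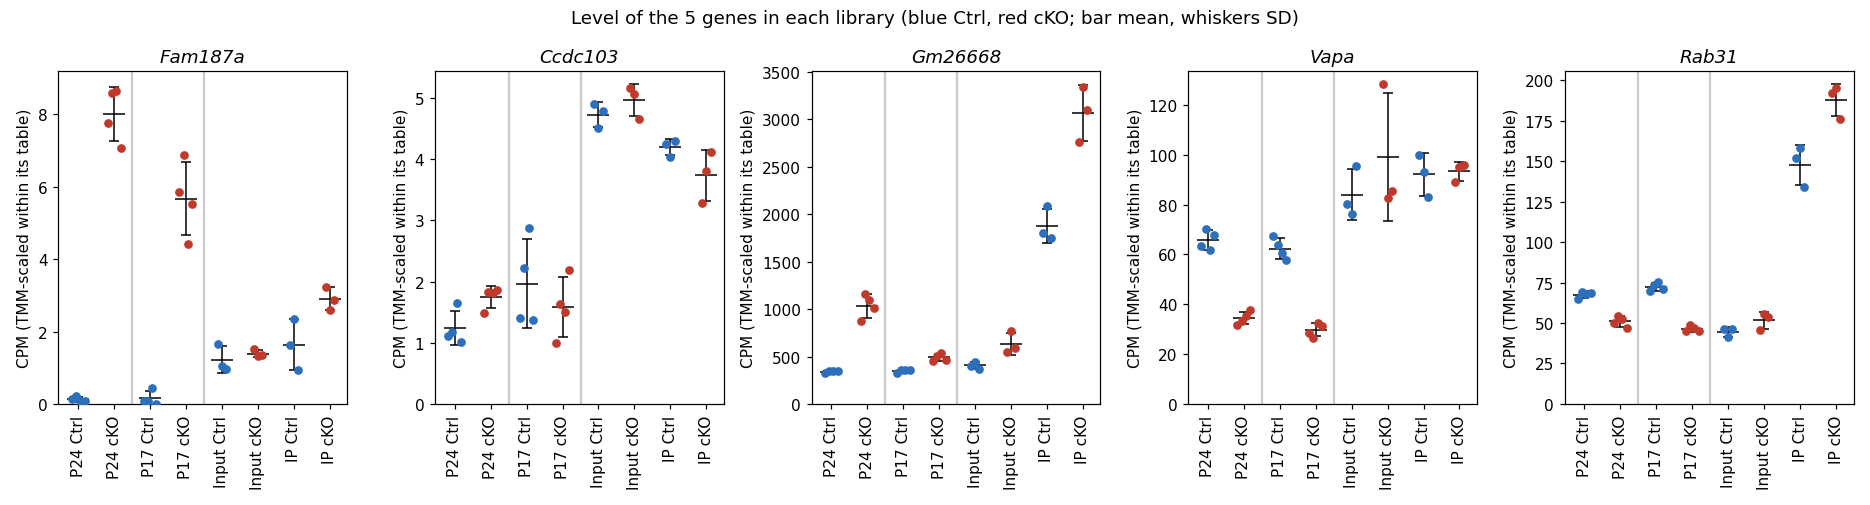
Level of each gene in each library, in CPM scaled within its table, for the 8 groups named on the x axis, with points for single mice, a bar for the mean and whiskers for the SD. For Fam187a, cKO stood far above Ctrl in bulk (8.01 against 0.129 CPM at P24), whereas Input Ctrl and Input cKO lay together at 1.23 and 1.39 CPM, between both bulk levels.

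The order of the Fam187a levels was bulk Ctrl at P24 (0.129 CPM ± 0.0703) and P17 (0.156 ± 0.196), which overlapped, then Input Ctrl (1.23 ± 0.365), Input cKO (1.39 ± 0.106) and IP Ctrl (1.63 ± 0.703), which overlapped as well, then IP cKO (2.90 ± 0.323), P17 bulk cKO (5.67 ± 1.01) and P24 bulk cKO (8.01 ± 0.743), which did not. The Input of Ctrl mice thus held 9.51 times the level of P24 bulk Ctrl mice and was 6.53-fold under that of P24 bulk cKO mice. The table, extraction and kit differed along with the driver. Measured within a library, against its neighbour Ccdc103, Fam187a had between 0.0455 and 0.188 counts per Ccdc103 count in P24 bulk Ctrl, between 3.81 and 5.23 in P24 bulk cKO, between 0.204 and 0.336 in Input Ctrl and between 0.261 and 0.293 in Input cKO libraries. Both Input genotypes therefore lay nearer to P24 bulk Ctrl than to P24 bulk cKO mice on this scale. Ccdc103 itself, however, stood in the Input at 3.82 (Ctrl) and 4.01 (cKO) times its P24 bulk Ctrl level, in separately scaled tables. A higher Ccdc103 count lowers this ratio. On the scale of Gfap given next, Input cKO mice had a mean of 3.83 counts per 1000 Gfap counts. This lay between the means of P24 bulk Ctrl (0.920) and P24 bulk cKO mice (10.1). Input Ctrl mice, with a mean of 9.39, lay nearer to P24 bulk cKO mice. The extraction, the kit and the driver cannot be told apart here.

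The count of Fam187a was also set against that of Gfap in the same library. Per 1000 Gfap counts there were 10.1 ± 1.53 Fam187a counts in P24 bulk cKO and 21.3 ± 4.98 in P17 bulk cKO libraries (SD, n = 4 each), against at most 1.50 and 3.19 in Ctrl libraries of the same ages. In the Input there were between 6.85 and 12.8 in Ctrl and between 2.68 and 4.97 in cKO libraries. On this scale Input Ctrl overlapped P24 bulk cKO (as high as 12.3) and lay above all bulk Ctrl libraries, and Input cKO lay below Input Ctrl with no overlap. In the IP, where Gfap was highest, there were between 0.596 and 1.27 over both genotypes.

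Ccdc103 encodes a factor for the assembly of the dynein arms that move cilia. At P24 its Ctrl libraries had 1.10, 1.18, 1.65 and 1.02 CPM and its cKO libraries 1.48, 1.83, 1.81 and 1.86 CPM, from 14 to 26 counts each. At P17 the Ctrl libraries had 1.40, 2.22, 2.88 and 1.37 CPM and the cKO libraries 0.992, 1.64, 1.51 and 2.19 CPM. The groups overlapped at both ages, with log2 fold changes of 0.49 ± 0.21 and −0.30 ± 0.31 (SE) that point in opposite directions. They overlapped as well in the Input (4.73 CPM ± 0.198 in Ctrl and 4.96 ± 0.265 in cKO mice) and in the IP (4.20 ± 0.136 and 3.74 ± 0.420).

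Gm26668 was above Ctrl in every cKO library of every comparison. At P24 the Ctrl libraries had 322, 345, 352 and 344 CPM and the cKO libraries 870, 1162, 1099 and 1012 CPM, and at P17 the groups had 348 CPM ± 12.3 and 491 CPM ± 39.3 (SD, n = 4 each). In TRAP-Seq, Ctrl and cKO mice had 406 CPM ± 39.3 and 636 ± 115 in the Input, and 1877 ± 180 and 3068 ± 292 in the IP (SD, n = 3 each). The log2 fold changes were 1.60 ± 0.08 at P24, 0.50 ± 0.06 at P17, 0.65 ± 0.16 in the Input and 0.72 ± 0.11 in the IP (SE).

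Most of the counts of Gm26668 were matched by those of genes inside it. Its span holds 8 genes whole, Ccdc103, Fam187a, Gfap, Kif18b, C1ql1, 2410004I01Rik, Dcakd and Nmt1, and the summed counts of these 8 came to between 88.3% and 99.6% of the Gm26668 count in each library. Gfap alone came to between 38.7% and 44.3% of it in P24 bulk Ctrl and between 72.6% and 82.2% in P24 bulk cKO libraries, and to between 89.6% and 94.1% in the IP. Neither exon of Gm26668 overlaps Gfap, which lies on the other strand. In the same tables, of 915 pairs in which a gene with at least 200 counts lies in an intron of another gene on the opposite strand, the outer gene had at least the count of the inner one in every library in 830 (90.7%), and of 747 pairs on the same strand in 746.

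With the Gfap counts taken off, a step chosen after seeing this, Gm26668 came to 199 CPM ± 6.94 in Ctrl and 228 ± 14.3 in cKO mice at P24, and to 215 ± 5.19 and 220 ± 10.2 at P17. The log2 fold changes dropped to 0.20 ± 0.05 and 0.04 ± 0.05, with −0.11 ± 0.13 in the Input and 0.21 ± 0.09 in the IP (SE). In the IP all 3 cKO libraries (199 to 221 CPM) still stood above all 3 Ctrl libraries (173 to 188 CPM) without the Gfap counts. What remained after all 8 genes were taken off was between 9.11 and 59.3 CPM. In the IP this remainder was 13.1 CPM ± 4.28 in Ctrl and 53.5 ± 3.56 in cKO mice (SD, n = 3 each), with no overlap. A difference between genotypes was thus left there that the counts of these 8 genes did not match. It is small beside the whole count, of which the 8 genes came to 98.1% or more in the IP. Eftud2 and Plcd3, which lie partly inside the span, were not taken off, and their part in the remainder was not tested. In the Input the remainder was 30.8 ± 6.09 in Ctrl and 25.3 ± 7.29 CPM in cKO mice.

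**Figure D2:**
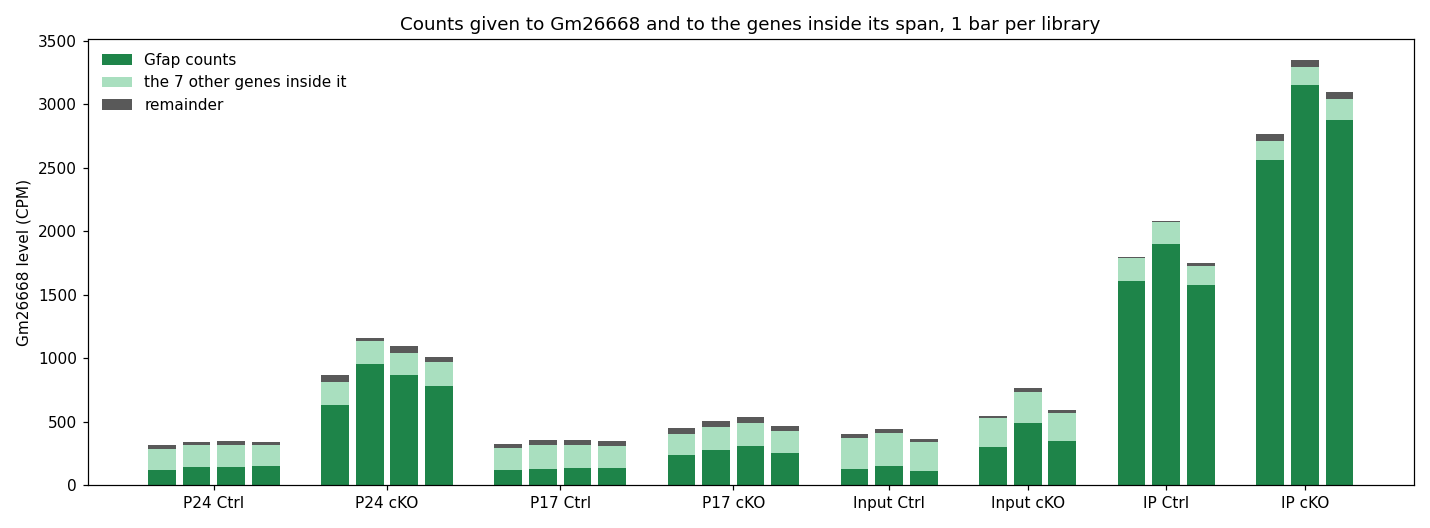
Level of Gm26668 in each library in CPM, 1 bar per library, split into Gfap counts, counts of the 7 other genes inside its span and the remainder. The part outside Gfap stayed between 173 and 292 CPM in all libraries, while the Gfap part was as high as 954 CPM in bulk cKO and 3147 CPM in IP cKO libraries.

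Vapa encodes a membrane protein of the endoplasmic reticulum that tethers it to other organelles through partners such as oxysterol-binding proteins. At P24 the Ctrl libraries had 63.5, 70.3, 61.8 and 67.7 CPM and the cKO libraries 31.7, 33.3, 35.4 and 37.5 CPM. At P17 they had 67.3, 63.9, 60.4 and 57.7 CPM against 28.7, 26.6, 32.6 and 31.4 CPM. The lowest Ctrl library was above the highest cKO library at both ages, with log2 fold changes of −0.93 ± 0.07 and −1.07 ± 0.07 (SE), so that cKO cortex held 0.524 and 0.478 of the Ctrl level.

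In the Input, Vapa stood at 80.1, 76.1 and 95.5 CPM in Ctrl and at 128, 82.6 and 85.5 CPM in cKO mice. The groups overlapped, and the log2 fold change of 0.24 ± 0.20 (SE) fell to 0.0045 when the highest cKO library, replicate 1, was left out. In the IP the levels were 92.1 CPM ± 8.48 and 93.3 ± 3.64 (SD, n = 3 each), again overlapping. All TRAP libraries of both genotypes were above the highest bulk Ctrl library (76.1 against 70.3 CPM), in a separately scaled table.

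Rab31 encodes a small GTPase of the Rab5 family that acts in traffic between the Golgi and endosomes. At P24 the Ctrl libraries had 64.7, 69.3, 67.6 and 68.4 CPM and the cKO libraries 50.1, 54.3, 52.4 and 47.0 CPM. At P17 they had 69.5, 73.4, 75.2 and 71.0 CPM against 45.2, 48.7, 47.1 and 44.9 CPM. The groups did not overlap at either age, with log2 fold changes of −0.41 ± 0.06 and −0.64 ± 0.06 (SE), smaller in size than those of Vapa.

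In the Input, Rab31 was at 46.5, 41.1 and 46.4 CPM in Ctrl and at 45.5, 55.5 and 53.9 CPM in cKO mice, which overlapped. In the IP every cKO library was above every Ctrl library, at 192, 195 and 176 CPM against 152, 158 and 134 CPM, with a log2 fold change of 0.35 ± 0.10 (SE), opposite in sign to bulk cortex. The count of Vapa per count of Rab31 within a library, which no scaling touches, was between 0.913 and 1.01 in P24 bulk Ctrl and between 0.612 and 0.799 in P24 bulk cKO, and between 0.803 and 0.967 and between 0.545 and 0.698 at P17. It was between 1.72 and 2.06 in Input Ctrl and between 1.49 and 2.82 in Input cKO libraries, which overlapped. In the IP it was between 0.590 and 0.659 in Ctrl and between 0.464 and 0.543 in cKO libraries, so that cKO lay below Ctrl with no overlap, as in bulk, here with Rab31 higher and Vapa overlapping between genotypes.

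**Figure D3:**
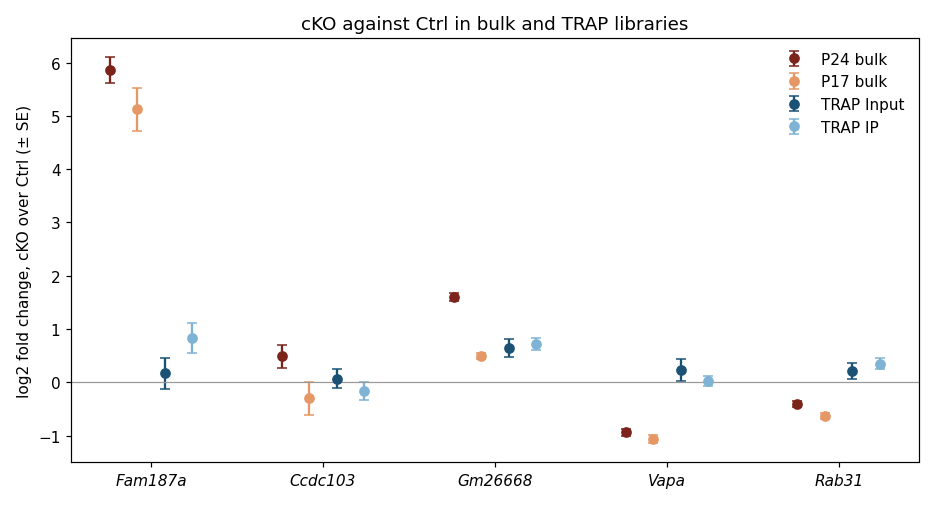
Log2 fold change of cKO over Ctrl for the 5 genes in P24 bulk, P17 bulk, TRAP Input and TRAP IP libraries, with points for the fitted value and whiskers for its SE. Vapa and Rab31 were under 0 in both bulk comparisons (−0.93 and −0.41 at P24) and at or above 0 in both TRAP fractions, and Fam187a fell from 5.86 at P24 to 0.17 in the Input.

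The chromosome 11 and chromosome 17 genes were chosen on these differences, so no p-value is given for them between cKO and Ctrl. For reference, 4 of the 5 (all but Ccdc103) were past the threshold, an adjusted p under 0.05 in edgeR's quasi-likelihood test, in P24 bulk, where 1.72% of the genes tested were, and the same 4 in P17 bulk, where 0.0943% were. In the Input 0 of the 5 were, by edgeR or DESeq2, against 0.109% of the genes tested, and 1 of 5 (Gm26668) had an unadjusted p under 0.05, while in the IP 2 were (Gm26668 and Rab31), against 20.0%, and DESeq2 called 3, Fam187a besides these. At P17 same-numbered libraries varied together, and a block for the replicate number raised the number of genes past the threshold from 20 to 109, with 4 of the 5 genes among them. The P17 counts of neighbours, markers and listed genes given below are from fits without this block and were not repeated with it. In bulk tissue, fewer cells of a type and less RNA per cell cannot be told apart.

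The genes around the 5 were next compared. The rule did not name them, but the 5 were picked with bulk levels known. A neighbour that differed clearly in bulk could have been picked, so the bulk counts here describe that choice and do not test it. Within 500 kb of Gfap or of the Vapa to Rab31 stretch lay 76 other annotated genes. Of these, 45 were tested in P24 bulk and 40 in P17 bulk, and Gfap alone passed the threshold at each age, with log2 fold changes of 2.51 ± 0.11 (adjusted p = 2.18e-07) and 1.03 ± 0.08 (adjusted p = 8.58e-05). The median log2 fold change of the window was 0.01 at P24 and 0.04 at P17, against 0.00 over all genes tested at either age. Windows of 250 kb and of 1000 kb held no further gene past the threshold in bulk. DESeq2 added Twsg1 on chromosome 17 at P24, at 0.34 ± 0.09 in edgeR (adjusted p = 0.0883), and no gene at P17.

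Of the genes next to the 5, Eftud2 and Ppp4r1 were near 0 in bulk. Eftud2, a splicing factor gene upstream of Ccdc103, had a log2 fold change of −0.07 ± 0.06 at P24 and −0.02 ± 0.06 at P17. Ppp4r1, a phosphatase regulator gene beside Rab31, had 0.07 ± 0.06 and 0.09 ± 0.06. Kif18b, on the far side of Gfap, and Txndc2, between Vapa and Rab31, were too low to be tested in bulk. Tmem232, on the far side of Vapa, had −0.33 ± 0.12 at P24 (adjusted p = 0.241) and −0.25 ± 0.13 at P17 (adjusted p = 1). On chromosome 11 at P17, Gm11627 (0.89 ± 0.24, adjusted p = 0.521) and Spata32 (0.66 ± 0.30, adjusted p = 1) had larger log2 fold changes than Gm26668, with wider errors, and both are named after their values were seen.

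**Figure D4:**
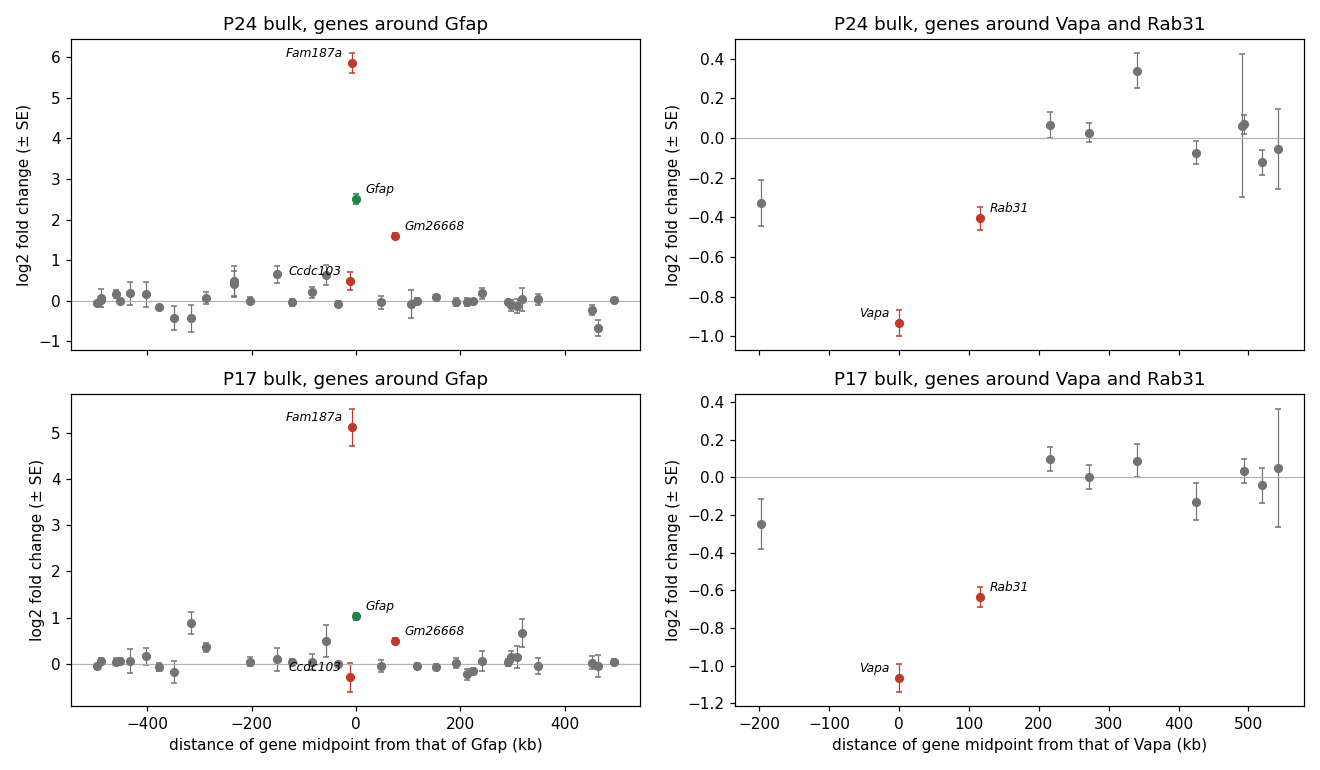
Log2 fold change of cKO over Ctrl (with SE) for each tested gene within 500 kb, by the distance of its midpoint from that of Gfap (left) or Vapa (right) in kb, at P24 (top) and P17 (bottom), with the 5 genes in red and Gfap in green. Fam187a and Gfap are the highest on the left at both ages and Vapa and Rab31 the lowest on the right, while Gm26668 stands above the other neighbours at P24 (1.60) but not at P17 (0.50), and Rab31 (−0.41) lies close to Tmem232 (−0.33) at P24.

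In the Input 0 of 48 tested genes of the windows passed the threshold in edgeR, with 2 at an unadjusted p under 0.05 and Gfap at 1.53 ± 0.21 (adjusted p = 0.0504), and Gfap alone passed in DESeq2. In the IP 10 of 48 did, 5 higher and 5 lower in cKO mice, against 20.0% of all genes tested there. On chromosome 11 these included Slc25a39 (0.56 ± 0.12), Gfap (0.76 ± 0.11) and Arhgap27 (0.79 ± 0.17), which were higher, and Gpatch8 (−0.44 ± 0.11), Hexim1 (−0.58 ± 0.12), Hexim2 (−0.39 ± 0.12) and Plekhm1 (−0.70 ± 0.14), which were lower. On chromosome 17 Tmem232 (0.43 ± 0.12) and Twsg1 (0.45 ± 0.12) were among those higher. The share was close to that over all genes.

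A search over all genes for the same pattern returned Fam187a. Of 20083 genes tested in both bulk tables and in the Input, 18 were past the threshold with the same sign at both ages, and 6 of these lie on chromosome 1, 5 on chromosome 11 and 2 on chromosome 17. The pattern asked for a change in the Input of less than 0.25 of the smaller bulk change. Fam187a, at 0.0333, met it, and Vapa, at 0.256, was just outside. The next were Igsf8 at 0.328, Cbarp at 0.347 and Rab31 at 0.521, and Gm26668 stood at 1.31. Vapa and Rab31 were the only 2 of the 18 whose sign in the Input was opposite to bulk. These values describe the choice of the genes and are not a test of it.

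The comparison of IP with Input, in which the rule had no part, showed Rab31 to be enriched on the tagged ribosomes in both genotypes and gave no difference past the threshold for Vapa. In Ctrl mice Rab31 rose from 44.7 CPM ± 3.09 in the Input to 148 ± 12.4 in the IP (SD, n = 3 each), or by 1.72 ± 0.10 on the log2 scale (SE, edgeR adjusted p = 3.39e-08). In cKO mice it rose from 51.6 ± 5.35 to 188 ± 10.2 CPM, a log2 fold change of 1.85 ± 0.16 (adjusted p = 3.22e-05). All 6 mice moved in that direction, by between 1.52 and 2.07 on the log2 scale.

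Vapa had a log2 fold change of 0.12 ± 0.11 in Ctrl mice (adjusted p = 0.312) and −0.09 ± 0.18 in cKO mice (adjusted p = 0.692), and the fractions overlapped in both genotypes. Gm26668 was higher in the IP in both, by 2.20 ± 0.12 (adjusted p = 1.71e-08) and 2.25 ± 0.19 (adjusted p = 3.07e-05), but with the Gfap counts taken off it was lower in Ctrl mice, at −0.61 ± 0.10 (adjusted p = 0.000123), and had −0.30 ± 0.15 in cKO mice (adjusted p = 0.115). Ccdc103 had −0.18 ± 0.15 (adjusted p = 0.300) and −0.42 ± 0.19 (adjusted p = 0.0928).

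Fam187a was higher in the IP of cKO mice, by 1.05 ± 0.23 (adjusted p = 0.00441), with all 3 mice between 0.767 and 0.895 on the scale of log2(CPM + 0.5). In Ctrl mice its log2 fold change was 0.38 ± 0.35 (adjusted p = 0.342), and mouse 2 alone was higher in the IP, by 0.867, while the others stood at −0.02 and −0.04. Whether the genotypes differed in this was not tested. In all, 2 of the 5 genes passed the threshold in Ctrl mice and 3 in cKO mice, against 71.0% and 56.3% of the genes tested. Gfap itself had 3.66 ± 0.14 and 2.88 ± 0.23.

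**Figure D5:**
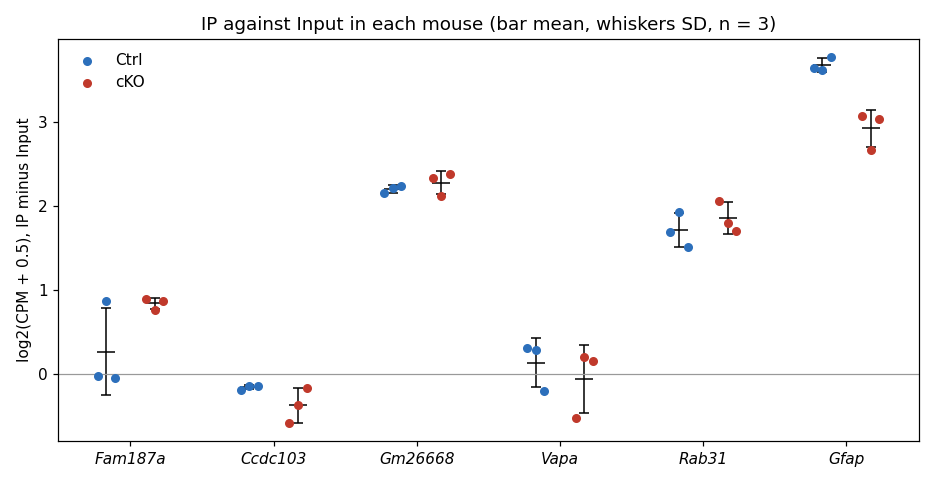
Difference between IP and Input of the same mouse on the scale of log2(CPM + 0.5), for the 5 genes and Gfap, with points for single mice, a bar for the mean and whiskers for the SD (n = 3 per genotype). Rab31 and Gm26668 lie at 1.52 or above in all mice, Vapa lies around 0, and Fam187a is above 0 in all cKO mice and in 1 of 3 Ctrl mice.

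The enrichment of the fractions themselves was as follows. All 7 astrocyte markers (such as Aldh1l1 and Slc1a3) were higher in the IP than in the Input in both genotypes, with a median log2 fold change of 3.08 in Ctrl and 2.26 in cKO mice, and 5 of 6 neuronal markers were lower in both, with medians of −1.74 and −1.84. Between genotypes, the summed level of the 7 astrocyte markers was between 3079 and 3542 CPM in P24 bulk cKO against between 3622 and 4216 CPM in Ctrl libraries, with 2 of 7 markers higher (Aldh1l1 and Sox9) and 2 lower (Slc1a3 and Slc1a2). At P17 it overlapped, between 4053 and 4461 against between 4242 and 4534 CPM. Of the 7 markers, 0 passed the threshold at P17 in edgeR or DESeq2 (2 at an unadjusted p under 0.05), against 0.0943% of all genes tested in edgeR. In the Input the summed level was between 1132 and 1456 CPM in cKO against between 832 and 948 CPM in Ctrl libraries. Of 23 markers of neurons, oligodendrocytes, microglia, endothelial and ependymal cells, 0 passed the threshold in edgeR in either bulk comparison. Over all genes, 1.72% passed at P24 and 0.0943% at P17. At an unadjusted p under 0.05 there were 3 of the 23 at P24 and 1 at P17, and DESeq2 called C1qa of microglia at P24. The part of the cell types in the 5 genes' differences was not tested.

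The other genes of the pathways to which Vapa, Rab31 and Ccdc103 belong were compared with lists made for this purpose. Over all genes, 1.72% passed the threshold at P24 and 0.0943% at P17, shares at which lists this short would mostly hold no such gene. Of 17 genes of the VAP family and of contact sites of the endoplasmic reticulum, 0 passed at either age, with median log2 fold changes of −0.01 and 0.01. Vapb, the closest relative of Vapa, had −0.01 ± 0.06 and 0.00 ± 0.06. Of 14 genes of Rab5-family GTPases and their regulators, 0 passed at either age, with medians of 0.05 and 0.03, and Rab22a, the closest relative of Rab31, had 0.05 ± 0.06 and 0.09 ± 0.06. Of the genes for dynein arm assembly, 0 of 14 tested at P24 and 0 of 12 at P17 passed. At an unadjusted p under 0.05 there were 3, 3 and 2 genes of these lists at P24 and 0 at P17, and DESeq2 called Rab5c at P24 and no other gene of the 3 lists in bulk. Of 4 intermediate filament genes of astrocytes, Gfap and Vim were higher at P24 (Vim by 3.22 ± 0.39, adjusted p = 0.0012) and Gfap at P17.

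In the TRAP Input 0 genes of the first 3 lists passed the threshold in edgeR or DESeq2 (1 dynein arm gene at an unadjusted p under 0.05) and Vim did among the filaments, at 3.41 ± 0.35 (adjusted p = 0.022). In the IP, against 20.0% of all genes, 1 of 17 contact-site genes passed (Osbp, lower by 0.37 ± 0.11 on the log2 scale), and 4 of 14 genes of the Rab5 family list, with Rab5c (0.55 ± 0.10) and Rabgef1 (0.29 ± 0.09) higher and Gapvd1 (−0.33 ± 0.09) and Rin2 (−0.51 ± 0.14) lower, and 1 of 14 dynein arm genes (Ccdc114, 0.42 ± 0.11). Between IP and Input, where 71.0% of all genes passed in Ctrl and 56.3% in cKO mice, 14 of 17 contact-site genes passed in each genotype, 5 higher and 9 lower, Vapb lower among them (−0.78 ± 0.09 in Ctrl and −0.91 ± 0.14 in cKO mice). Of the 14 Rab5 family genes, 12 passed in Ctrl and 10 in cKO mice, 5 of them higher in each, such as Rab5a (1.31 ± 0.13 and 1.45 ± 0.15). Of the 14 dynein arm genes tested, 5 were higher in Ctrl mice, and 3 were higher and 2 lower in cKO mice.

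Over the 22 cortex libraries (16 bulk and 6 Input, each table centred on its own mean), the genes with the pattern most like each of the 5 were as follows, as a description of libraries that share genotype groups. Fam187a was most like Dcaf8 (Pearson r = 0.875), Gm42047 (0.870) and Pea15a (0.855), and Dcaf8 and Pea15a lie on chromosome 1. Vapa was most like Igsf8 (0.886), also on chromosome 1, then Rab31 (0.848) and Baalc (0.838), and Rab31 was most like Vapa (0.848), Igsf8 (0.823) and Dnaic1 (0.803). Gm26668 was most like Gfap (0.987), which lies inside its span, then Dhrs1 (0.956) and Gpnmb (0.954). Ccdc103 had the weakest likeness, to Clec2d (0.731), Rnf181 (0.722) and Npy2r (0.720).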

How the data were processed

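RNA was measured in 28 cortex libraries, 16 of bulk RNA-Seq and 12 of TRAP-Seq, each from 1 mouse. The authors mapped reads to MM10 with STAR, run in Galaxy, and the deposited values are unnormalized read counts for each Ensembl gene, in 3 tables. The counting tool, its strand setting and the annotation are not given in the sources used here. Columns were matched to samples by genotype and replicate number, and the age of a bulk column rests on the table that holds it. Of the 53342 identifiers of a table, 53237 were found in GENCODE release M21 of GRCm38, the build the authors mapped to, and 53341 were shared by the 3 tables.

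The fits used edgeR 4.0.16 in R 4.3.3. Libraries were scaled by TMM, genes were kept by filterByExpr (minimum count 10, minimum total 15, 70% of libraries) and groups were compared with the quasi-likelihood test, two-sided, with Benjamini-Hochberg adjustment over all genes tested and a threshold of 0.05. The SE of a log2 fold change is its size over the square root of F. Each comparison used the 2 groups it names. Fits were tested on simulated data. Intervals on count ratios are exact at 95%.

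The 5 genes and all gene lists were chosen with earlier results of these data known. Besides them, Gfap was named, along with genes within 500 kb of Gfap or of Vapa to Rab31 that passed the threshold between cKO and Ctrl or adjoin one of the 5, genes at or near the limit of the bulk-only pattern, the 3 genes with the highest r for each of the 5, and genes of the lists. Some genes that this rule names, the floxed gene among them, are not reported here. Likeness used log2(CPM + 0.5).

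Alternatives were DESeq2 1.42.0, RLE factors, no filter, the replicate number as a block, other windows and leaving out each library. In P17 bulk, the deviations of same-numbered libraries from their group means correlated with r between 0.179 and 0.420. This was over the limit of 0.1 in every pair, so the numbers were taken to pair them. The P17 values reported are nevertheless from the fit without this pairing, unless the block is named. In P24 bulk (0.0366 to 0.246), and between genotypes in the Input (−0.0619 to 0.137) and the IP (0.0789 to 0.204), the numbers were not taken to pair libraries. IP and Input libraries of the same number were taken as the same mouse, since the lysate of each mouse was divided. Their deviations correlated with r between 0.0671 and 0.104 in Ctrl and between −0.140 and 0.161 in cKO mice. The edgeR values reported for IP against Input are from fits without this pairing. With the block, the adjusted p was 8.83e-07 for Rab31 in Ctrl and 0.013 for Fam187a in cKO mice.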

Additional observations from a re-analysis of the deposited data

Results flagged for a closer look

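Over 20 sets of 4 bulk libraries (5 genes in 4 groups), 2 held a library whose gap to the nearest other, divided by the range of the group, was above Dixon's 95% critical value for 4 samples. Chance gives such a gap in about 1 of 20 groups. Ccdc103 was at 1.48 CPM in P24 bulk cKO replicate 1, against 1.81 to 1.86 CPM in the others (ratio 0.867), from 22 counts against 23 to 26. Gm26668 was at 329 CPM in P17 bulk Ctrl replicate 1, against 353 to 355 CPM in the others (ratio 0.933), and remained on the side of its group, since the lowest cKO library had 452 CPM.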

How the results depend on the processing

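The number of genes past the threshold over all genes moved most. In P24 bulk it was 388 and became 604 with DESeq2 and 618 with no filter, and from 216 to 950 with a library left out (950 without cKO replicate 1, 216, 238 and 222 without cKO replicates 2, 3 and 4, and 235 and 226 without Ctrl replicates 1 and 2). In P17 bulk it was 20 and became 41 with DESeq2, 55 with no filter and 109 with the replicate block, and from 11 to 19 with a library left out (11 and 13 without Ctrl replicates 2 and 3). In the Input it was 26 and became 127 with DESeq2, 112 with no filter and 8 with the replicate block, and from 4 to 112 with a library left out (112 without cKO replicate 1, and 5, 4 and 5 without Ctrl replicates 1, 2 and 3). In the IP it was 4782, and from 2633 to 4810 with a library left out (2633 without cKO replicate 2, 3068 and 3183 without Ctrl replicates 1 and 3). Between IP and Input it ran from 16154 to 17296 in Ctrl and from 10973 to 16818 in cKO mice. The cause was not tested.

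For the 5 genes, Fam187a, Gm26668, Vapa and Rab31 kept their sign in all 8 fits with a library left out at each bulk age, with ranges of 5.67 to 6.22 and 4.79 to 6.20 for Fam187a, −0.98 to −0.89 and −1.11 to −1.02 for Vapa, and −0.44 to −0.37 and −0.66 to −0.62 for Rab31. In the IP between genotypes, Rab31 was past the threshold in 3 of 6 such fits and Fam187a in 1 of 6. Fam187a, not past it there in the fit reported, was past it with DESeq2, with no filter and with the replicate block. Between IP and Input, the block changed no call of the 5 genes, and neither did DESeq2, RLE factors, no filter or a library left out. The sign of Vapa in cKO mice turned from −0.09 to 0.14 without Input cKO replicate 1 (range −0.20 to 0.14). With Gfap counts taken off, Gm26668 turned to −0.61 in Ctrl and −0.30 in cKO mice between IP and Input. The bulk-only pattern was met by 1 gene, Fam187a, by 2 with DESeq2 and by 5 with the replicate block, Vapa among the 5.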

Other observations

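Under other settings the bulk-only pattern of Fam187a was also met by Gm42047 (with DESeq2 and with the replicate block) and by Baalc, Plpp3 and Vapa (with the block). These names were noted after the values were seen, and no test was made on them.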
